A study of Mus musculus with 17 samples.

Results

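The synaptic vesicle and release machinery was described here in the thoracic spinal cord of naïve mice and of mice with targeted experimental autoimmune encephalomyelitis (EAE). Its members were chosen by symbol rather than by measured value, though with earlier results of these data known. They are the synaptotagmins, synapsins, Sv2 proteins and synaptophysin, Snap25 and Snap91, Stx1a and the syntaxin-binding proteins. The complexins, the Rab3 forms with Rph3a, the Rims and Unc13 families, Bsn, Pclo and the Vamp family complete them. Of 18194 genes with a probe set annotated to 1 gene, 56 were members, and 132 probe sets measured them. The mice were female C57BL/6 mice, and the labels give an age of 8 weeks for every group without naming the step. In the study's schedule, weeks passed between immunization and cytokine injection. EAE mice were therefore older than 8 weeks when the cord was taken, and whether naïve mice matched them in age is not stated. The 6 naïve mice received no immunization, surgery, cytokine or antibody. In the other groups EAE was induced with a myelin oligodendrocyte glycoprotein peptide in complete Freund's adjuvant, TNF-α with IFN-γ was then injected into the cord through a laminectomy, and pertussis toxin was given from the day of that injection. Of these mice, 5 received palivizumab, an antibody to a viral protein that served as the isotype control, and 6 received a humanized antibody to repulsive guidance molecule-a (anti-RGMa). Both antibodies were given intravenously at 10 mg/kg, from 9 days post cytokine injection (DPI) on, and a piece of cord of 4.5 mm around the injection site was taken at 14 DPI. Each mouse gave 1 array. Because naïve mice lacked disease, surgery and antibody alike, these cannot be told apart in a comparison with them, and because the cord was measured in bulk, fewer cells of a type and less RNA per cell cannot be told apart either.

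At a nerve terminal, transmitter is packed into vesicles that carry synaptophysin, Sv2 proteins and synaptotagmins and are tethered by synapsins. Vesicles dock at the active zone, where RIM and Munc13 proteins prime them, and they fuse when the vesicle SNARE synaptobrevin (Vamp1 or Vamp2) pairs with Snap25 and syntaxin at the plasma membrane, clamped by complexins and triggered by calcium through synaptotagmins. In spinal cord this machinery serves motor neurons, interneurons and the endings of sensory and descending axons, while related SNARE and Munc18 forms (Vamp3, Vamp5, Vamp8, Stxbp2) serve endosomes and granule secretion in many other cells, among them cells of the immune system.

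Promoter sequence was available for 42 members, as the 250 bases before the annotated start (RefSeq, assembly GRCm38.p6). Those of the genes the comparisons below turn on are shown 5′ to 3′ on the strand of the gene, with the motif matches in capitals: Vamp5 and Vamp8 as members with higher signals in EAE that are neighbours on chromosome 6 (4752 bases apart with 0 genes between them), Vamp1 as a vesicle SNARE gene with a lower signal, and Syn1 as a gene past the threshold between the antibody groups.
Vamp5: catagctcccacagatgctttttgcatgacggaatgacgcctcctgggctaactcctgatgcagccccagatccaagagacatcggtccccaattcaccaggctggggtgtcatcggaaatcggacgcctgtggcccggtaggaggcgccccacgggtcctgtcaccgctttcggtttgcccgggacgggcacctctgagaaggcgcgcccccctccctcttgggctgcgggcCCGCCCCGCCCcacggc
Vamp8: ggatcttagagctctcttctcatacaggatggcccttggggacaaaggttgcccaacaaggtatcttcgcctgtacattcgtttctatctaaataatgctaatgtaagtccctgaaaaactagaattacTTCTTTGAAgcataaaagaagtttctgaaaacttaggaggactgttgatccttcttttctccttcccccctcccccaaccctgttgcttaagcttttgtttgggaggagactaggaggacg
Vamp1: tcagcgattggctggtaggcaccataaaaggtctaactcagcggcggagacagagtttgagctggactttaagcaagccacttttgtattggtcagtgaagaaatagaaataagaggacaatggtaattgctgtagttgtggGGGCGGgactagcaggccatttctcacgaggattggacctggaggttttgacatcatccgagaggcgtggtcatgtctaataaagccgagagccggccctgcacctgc
Syn1: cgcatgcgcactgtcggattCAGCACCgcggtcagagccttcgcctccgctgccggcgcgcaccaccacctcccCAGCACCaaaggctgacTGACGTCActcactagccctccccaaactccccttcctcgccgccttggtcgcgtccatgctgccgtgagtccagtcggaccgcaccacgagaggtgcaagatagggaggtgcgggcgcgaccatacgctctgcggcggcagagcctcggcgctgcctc

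The window of Vamp5 lies at chr6:72380469-72380718 and that of Vamp8 at chr6:72390668-72390917, both on the minus strand, that of Vamp1 at chr6:125215331-125215580 on the plus strand and that of Syn1 at chrX:20920919-20921168 on the minus strand. The motifs, searched on both strands, were the GC box GGGCGG, the cyclic AMP response element TGACGTCA, the interferon-gamma activated site TTCNNNGAA and CAGCACC, the left part of the RE1 element that the neuronal repressor REST binds. The GC box begins 17 and, overlapping, 12 bases before the start in Vamp5 and 108 bases before it in Vamp1, TTCNNNGAA lies 121 bases before the start in Vamp8, and Syn1 holds TGACGTCA at 159 bases and CAGCACC at 230 and 176 bases before the start. Among the 42 members the GC box was found in 32, against 35.4% of the 27025 genes with a window. Those genes were not limited to the ones measured on the arrays, so the 2 sets are unlike. TGACGTCA was found in 2 (1.77% of genes), TTCNNNGAA in 2 (8.13% of genes) and CAGCACC in 5 (6.56% of genes). These are matches of letters in the window and were not tested.

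Signals were linear MAS5.0 values scaled by the authors to the same trimmed mean on every array, and all values below are log2 signals or log2 fold changes. The mean log2 signal over the 17 arrays was at least 8 for 44 members and under 7 for 6. No detection calls were used, so that fold changes of the latter are less certain. Markers of other cells differed between the groups. All 10 macrophage and monocyte markers rose in isotype control against naïve mice (median log2 fold change 3.82), and their mean log2 signal was 7.99 to 8.36 in naïve mice and 11.34 to 12.43 in EAE mice. Isotype control replicates 1 and 5 and anti-RGMa replicate 6 had the highest macrophage means of the EAE arrays (12.43, 12.34 and 12.33, the others 11.34 to 11.79). Skeletal muscle markers had means of 8.92, 13.07 and 9.57 in isotype control replicates 3, 4 and 5 (4.03 to 8.18 in the other arrays), and sensory ganglion markers had means of 9.03 and 7.84 in anti-RGMa replicates 1 and 6 (3.96 to 6.58 in the others). The 15 neuron markers outside the synapse were present on every array, with means between 11.58 and 13.04.

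The first comparison asks how the release machinery differed between targeted EAE under the isotype control antibody and naïve cord. Of the 56 members, 39 fell and 6 rose at an adjusted p under 0.05 (limma, Benjamini-Hochberg over all genes), where 27.2% of all genes were lower and 24.6% were higher. The median log2 fold change of the members was -0.67, and that of all genes -0.04. Among the 44 brighter members, those averaging 8 or more, 34 fell and 4 rose, beside 39.6% and 29.9% of the 9914 genes as bright. The signals of 36 members lay below those of naïve mice in all isotype control mice, with no overlap, and those of 5 lay above (20.4% and 18.3% of all genes). Members of the vesicle membrane (7), the neuronal SNAREs (3), the synaptotagmins (12) and the active zone (7) made up most of the 39 falls, and SNARE and Munc18 forms of other secretion 4 of the 6 rises.

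**Figure D1:**
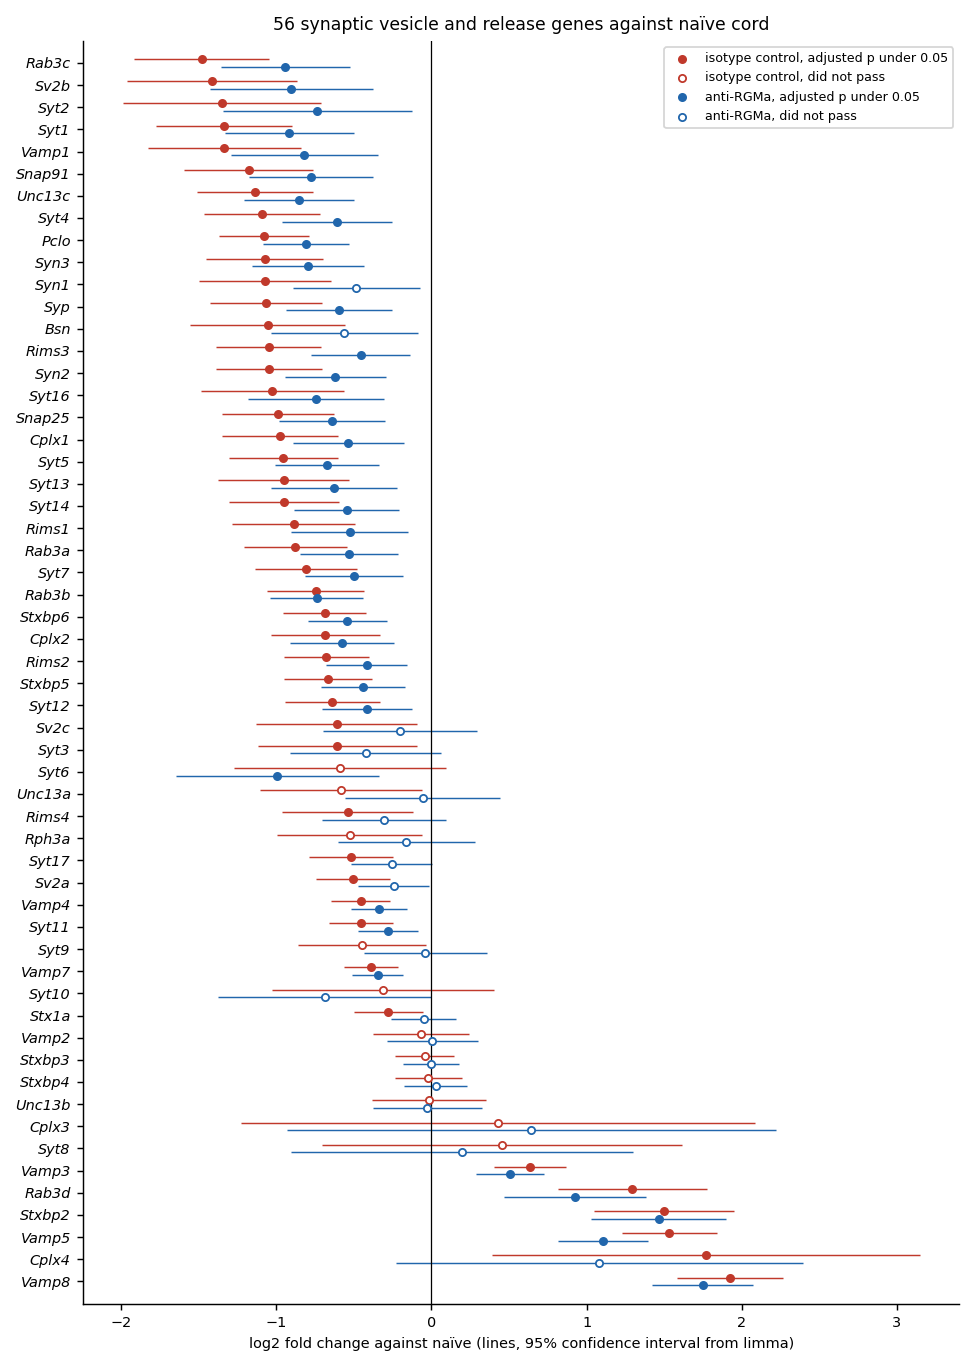
Log2 fold change (horizontal axis) of each of the 56 members in isotype control mice (red) and anti-RGMa mice (blue) against naïve mice, with 95% confidence intervals from limma. Filled points have an adjusted p under 0.05. Most members lie left of 0, from Rab3c at -1.48 in isotype control mice, while Vamp8 (1.92), Vamp5 (1.53), Stxbp2 (1.499) and Rab3d (1.30) lie right of it.

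Among vesicle membrane proteins and synapsins, all 7 members fell in isotype control mice, with log2 fold changes from -1.41 to -0.50. Syp, which encodes synaptophysin, had log2 signals of 11.26, 11.42 and 11.65 in naïve mice (lowest, median and highest, a form used throughout for groups of 6) and 10.06, 10.65, 10.67, 10.45 and 9.95 in isotype control replicates 1 to 5. Every isotype control mouse lay below every naïve mouse (log2 fold change -1.07, SE 0.17, adjusted p = 8.0e-05). Syn1, a synapsin that tethers vesicles to the cytoskeleton, had 10.22, 10.37 and 10.85 in naïve mice and 9.01, 9.70, 9.51, 9.59 and 9.01 in isotype control mice, again without overlap (-1.07, SE 0.20, adjusted p = 0.00032). The synapsins Syn2 and Syn3 fell by 1.05 and 1.07 on the log2 scale. Sv2 proteins are glycoproteins of the vesicle membrane, and the 3 forms fell to different extents. Sv2b had 11.13, 11.21 and 11.53 in naïve mice and 9.32, 10.39, 10.38, 10.04 and 9.17 in isotype control mice. This was a 2.66-fold lower mean signal (-1.41, SE 0.26, adjusted p = 0.00026). Sv2a had -0.50 (SE 0.11) and the dim Sv2c -0.61 (SE 0.24, adjusted p = 0.047). The call of Sv2c was lost when any of 10 single arrays was left out.

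Of the 4 SNARE genes of neuronal release, 3 fell. Snap25, the plasma membrane SNARE of the synapse, had 14.71, 14.73 and 14.86 in naïve mice and 13.42, 13.97, 14.12, 13.95 and 13.33 in isotype control mice (-0.99, SE 0.17, adjusted p = 0.00015). All isotype control mice lay below the naïve range, replicates 1 and 5 the farthest. Vamp1, a synaptobrevin of motor and other spinal neurons, had 13.55, 13.61 and 13.67 in naïve mice and 11.70, 12.65, 12.68, 12.53 and 11.82 in isotype control mice, a 2.52-fold lower mean (-1.33, SE 0.23, adjusted p = 0.00017). Vamp2, the other synaptobrevin, had 10.30, 10.63 and 11.02 in naïve mice and 10.25, 10.95, 10.57, 10.55 and 10.61 in isotype control mice. These ranges overlapped (-0.07, SE 0.14, adjusted p = 0.74), although a second probe set of Vamp2 gave -1.07. Stx1a, a syntaxin of the plasma membrane, was lower by less (-0.28, SE 0.10, adjusted p = 0.035), with overlapping ranges, and its call was lost without any 1 of naïve replicates 2, 4 or 5 or isotype control replicates 1, 4 or 5.

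Synaptotagmins are vesicle and granule proteins, of which Syt1, Syt2 and Syt9 are known as fast calcium sensors of release. Of 16 measured, 12 fell and 0 rose. The largest falls were those of Syt2 and Syt1. Syt1 had 11.76, 11.97 and 12.09 in naïve mice and 10.08, 10.86, 11.17, 10.63 and 10.43 in isotype control mice (-1.34, SE 0.21, adjusted p = 6.0e-05). Syt2 had 11.64, 11.81 and 12.10 in naïve mice and 9.81, 11.06, 10.97, 10.81 and 9.80 in isotype control mice (-1.35, SE 0.30, adjusted p = 0.0013). In both, no isotype control mouse reached the naïve range. Syt4 (-1.09), Syt16 (-1.02), Syt5, Syt13 and Syt14 (-0.95 each), Syt7 (-0.81), which sustains slower release, Syt12 (-0.64), Syt3 (-0.61), Syt17 (-0.52) and Syt11 (-0.45) fell as well. Syt9 did not pass (-0.45, SE 0.19, adjusted p = 0.067), nor did Syt6 (-0.59), Syt8 (0.46) and Syt10 (-0.31), the dimmest members of the family.

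**Figure D2:**
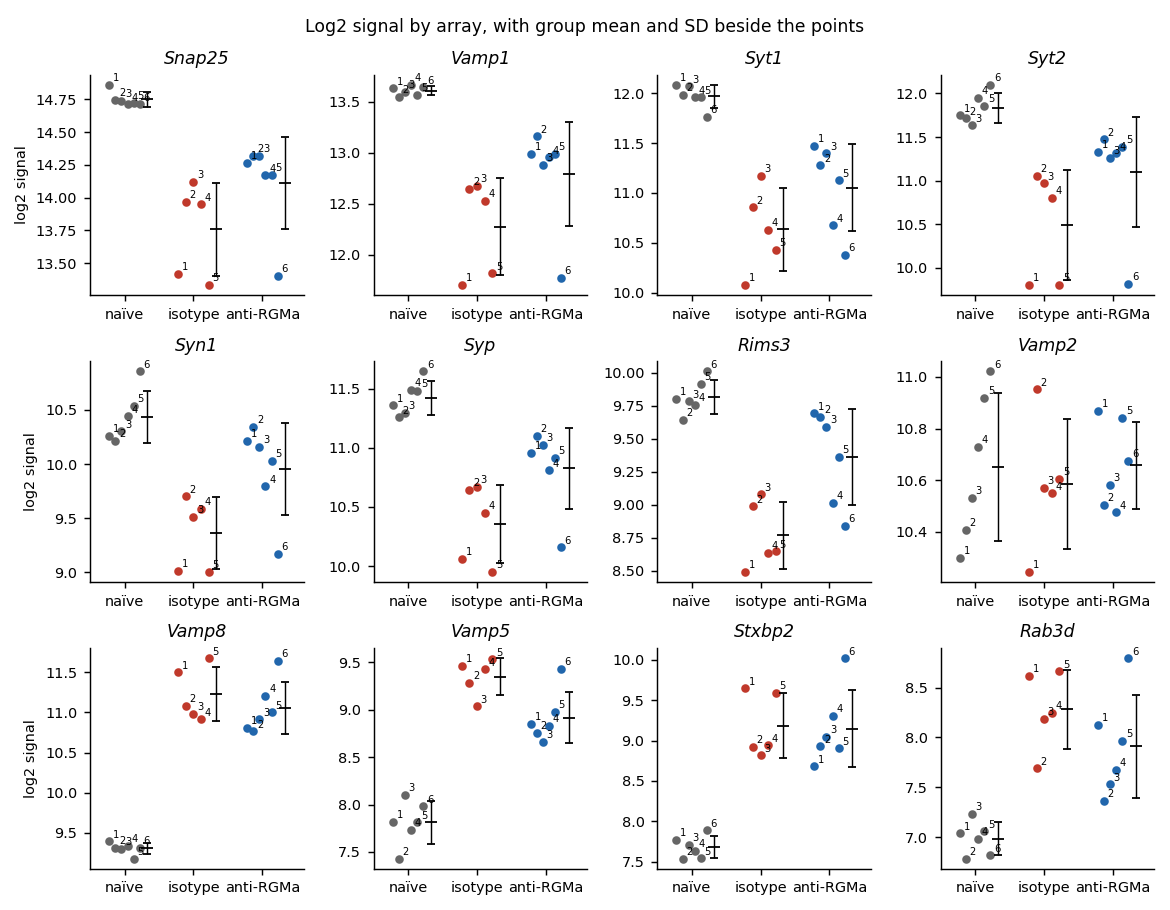
Log2 signal of 12 members on each of the 17 arrays (points with replicate numbers), with the group mean and SD beside them, in naïve mice (grey), isotype control mice (red) and anti-RGMa mice (blue); each panel has its own vertical axis. Replicates 1 and 5 of isotype control and 6 of anti-RGMa are the lowest EAE arrays for Snap25, Vamp1, Syt2, Syn1 and Syp and the highest for Vamp8, Stxbp2 and Rab3d, and Vamp2 overlaps in all groups.

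Rab3 GTPases recruit the release machinery to vesicles, and Rph3a is an effector of theirs. Rab3c had the largest fall of all members, with 11.72, 11.99 and 12.09 in naïve mice and 9.95, 10.71, 11.02, 10.46 and 10.25 in isotype control mice, a 2.79-fold lower mean signal without overlap (-1.48, SE 0.20, adjusted p = 2.4e-05). Rab3a, the main neuronal form, fell by 0.88 and Rab3b by 0.75 on the log2 scale. Rab3d, the form of secretory granules in exocrine and mast cells, rose instead, from 6.78, 7.01 and 7.23 in naïve mice to 8.62, 7.69, 8.18, 8.25 and 8.66 in isotype control mice (1.30, SE 0.23, adjusted p = 0.00018), with no overlap. Rph3a had -0.53 and did not pass (adjusted p = 0.055), whereas its other probe set had -1.43 (SE 0.19, adjusted p = 1.8e-05) and the mean of both -0.98 (adjusted p = 0.00048).

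At the active zone, 7 of 9 members fell and 0 rose. The scaffolds Pclo and Bsn had log2 fold changes of -1.08 (SE 0.14, adjusted p = 1.1e-05) and -1.06 (SE 0.23, adjusted p = 0.0013). Pclo signals were 10.12, 10.29 and 10.43 in naïve mice and 8.91, 9.18, 9.63, 9.23 and 9.02 in isotype control mice, and Bsn also showed no overlap. Rims1 (-0.89), Rims2 (-0.68), Rims3 (-1.05) and Rims4 (-0.54), of the RIM family, all fell, but Rims3 did not pass with the mean of its probe sets (-0.36, adjusted p = 0.27). The priming factors of the Munc13 family differed among themselves, since Unc13c fell by 1.14 on the log2 scale (SE 0.18, adjusted p = 6.1e-05), Unc13a had -0.58 (SE 0.25, adjusted p = 0.058) and Unc13b -0.02 (SE 0.17, adjusted p = 0.95). Complexins clamp the assembled SNARE complex. Cplx1 had 13.84, 13.92 and 13.97 in naïve mice and 12.70, 13.23, 13.15, 12.97 and 12.63 in isotype control mice (-0.98, SE 0.18, adjusted p = 0.00024), and Cplx2 fell by 0.68 on the log2 scale. Cplx3 did not pass (0.43, SE 0.78), and Cplx4 was called higher (1.77, SE 0.65, adjusted p = 0.031) on log2 signals between 1.03 and 5.44 with overlapping ranges. Snap91, a clathrin adaptor of vesicle retrieval, had 12.87, 12.91 and 13.02 in naïve mice and 11.23, 12.13, 12.21, 11.83 and 11.35 in isotype control mice (-1.18, SE 0.20, adjusted p = 0.00012). Among the other syntaxin-binding proteins, Stxbp5 (-0.67) and Stxbp6 (-0.69), which both limit SNARE assembly, fell, while Stxbp4 had -0.02 (SE 0.10).

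The SNARE and Munc18 forms of other secretion and endosomes divided, with 4 of 7 members higher and 2 lower. Vamp8, a SNARE of late endosomes and secretory granules, had 9.18, 9.31 and 9.40 in naïve mice and 11.50, 11.08, 10.98, 10.91 and 11.67 in isotype control mice, a 3.79-fold higher mean signal (1.92, SE 0.16, adjusted p = 1.4e-07). Vamp5, its chromosomal neighbour, known from muscle and endothelial membranes, had 7.43, 7.82 and 8.10 in naïve mice and 9.46, 9.28, 9.04, 9.42 and 9.53 in isotype control mice (1.53, SE 0.14, adjusted p = 4.6e-07). Stxbp2, the Munc18 form of granule release in mast cells and cytotoxic lymphocytes, had 7.54, 7.67 and 7.89 in naïve mice and 9.65, 8.92, 8.82, 8.94 and 9.59 in isotype control mice (1.499, SE 0.21, adjusted p = 3.1e-05). In these 3 genes the lowest EAE array stood above the highest naïve array on the probe set used. A second, dimmer probe set of Vamp5 did not show this rise, as described below. Vamp3, a SNARE of recycling endosomes, had 11.54, 11.64 and 11.84 in naïve mice and 12.48, 12.49, 12.01, 12.06 and 12.50 in isotype control mice (0.64, SE 0.11, adjusted p = 0.00014), but its 5 probe sets were not alike, as described below. Vamp4, of the trans-Golgi network, and Vamp7, of late endosomes and lysosomes, were lower in every isotype control mouse than in any naïve mouse, by 0.46 and 0.39 on the log2 scale (adjusted p = 0.00048 and 0.00081). Stxbp3, a widely expressed Munc18 form, had -0.04 (SE 0.09), with 11.00 to 11.40 in naïve mice and 10.94 to 11.32 in isotype control mice, though with arrays centred on their medians it was lower (-0.27, adjusted p = 0.029). Its other, dimmer probe set went the other way, with a mean log2 signal of 7.40 in naïve and 7.94 in isotype control mice. The rises of Vamp8, Vamp5, Stxbp2 and Rab3d stood beside those of the macrophage markers and also of 5 of 6 T cell markers (median 4.03 on the log2 scale), and the part of these cells in the result was not tested.

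Other genes of the terminal moved with the members. Of 28 further presynaptic genes, 23 fell and 2 rose in isotype control against naïve mice, with a median log2 fold change of -1.13. The vesicular transporters of acetylcholine (Slc18a3, -1.85, SE 0.29, adjusted p = 7.5e-05), of GABA and glycine (Slc32a1, -1.47) and of glutamate (Slc17a6, -1.37) fell, as did Synpr (synaptoporin, -1.68) and Nsf (-1.15), the ATPase that takes SNARE complexes apart. The active zone gene Erc1 (0.25) and the liprin gene Ppfia4 (0.21) rose. Of the 15 neuron markers outside the synapse, 14 fell and 0 rose, with a median of -1.004 and values such as -1.40 for Rbfox3 (NeuN) and -0.86 for Nefl, a neurofilament. The share of the difference in the members that moved with neuron markers was not tested. Oligodendrocyte markers had a median of -0.23 (4 of 7 lower, 1 higher) and astrocyte markers 0.08 (2 of 6 lower, 3 higher).

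The second comparison sets targeted EAE under the anti-RGMa antibody beside the same naïve mice, with which the first comparison therefore shares its controls. Of the 56 members, 32 fell and 5 rose, where 21.6% of all genes were lower and 20.3% were higher. The median log2 fold change of the members was -0.47, and that of all genes -0.03. The signals of 25 members lay below the naïve range in all anti-RGMa mice and those of 5 lay above it (13.8% and 13.9% of all genes). Snap25 had 13.40, 14.22 and 14.32 in anti-RGMa mice, below the lowest naïve signal in each (-0.64, SE 0.16, adjusted p = 0.0048), but the call was lost with the mean of its probe sets (-0.30, adjusted p = 0.14). Vamp1 had 11.77, 12.97 and 13.16 (-0.82, SE 0.22, adjusted p = 0.0075), Rab3c 10.22, 11.21 and 11.37 (-0.94, SE 0.20, adjusted p = 0.0012) and Syt1 10.38, 11.20 and 11.47 (-0.92, SE 0.20, adjusted p = 0.0015). In these 3 genes, too, the groups did not overlap.

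By role, 4 of 7 vesicle membrane proteins and synapsins fell against naïve mice in the anti-RGMa group, 2 of 4 neuronal SNARE genes, 2 of 4 complexins, 11 of 16 synaptotagmins, 3 of 5 of the Rab3 group, 5 of 9 active zone genes and Snap91. So did 2 of 3 other syntaxin-binding proteins and 2 of 7 SNARE and Munc18 forms of other secretion (Vamp4, -0.34, and Vamp7, -0.35). Syp (-0.59, SE 0.16) and Syn2 (-0.62) were among the members that fell. The falls of Sv2b (-0.90), Pclo (-0.81), Unc13c (-0.86) and Snap91 (-0.78) were larger. Syn1 (-0.48, SE 0.19, adjusted p = 0.054), Sv2a (-0.24, adjusted p = 0.083), Bsn (-0.56, adjusted p = 0.056), Unc13a (-0.06) and Stx1a (-0.05) did not pass. The adjusted p of Syt2 was 0.0499 (-0.74, SE 0.29), and its call was lost under most of the alternatives. Syt6 was lower (-0.99, adjusted p = 0.016) on a dim signal between 4.12 and 7.04. The risen members were Vamp8 (1.75, SE 0.15), Stxbp2 (1.46, SE 0.20), Vamp5 (1.10, SE 0.14), Rab3d (0.92, SE 0.22) and Vamp3 (0.51, SE 0.10; 0.15, adjusted p = 0.27, with the mean of its probe sets), and Cplx4, at 1.08 (SE 0.62), did not pass. Without anti-RGMa replicate 6, 29 members were lower and 5 higher, beside 18.8% and 18.4% of all genes.

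The third comparison asks whether the members differed between the antibody groups within EAE. At an adjusted p under 0.05, 0 members were lower and 0 were higher, as were 0 (0%) and 1 (0.00550%) of all genes. The study itself used a fold above 1.5 together with p under 0.05 before adjustment, and by that rule 2 members were higher in anti-RGMa mice and 0 were lower, where 1.22% of all genes were higher and 2.72% were lower. At an unadjusted p under 0.05 alone, 13 members were higher and 1 was lower, beside 9.01% and 6.77% of all genes. Among the 44 brighter members 12 were higher and 1 was lower at that p, beside 13.3% and 7.62% of the genes as bright. The log2 fold change was above 0 for 46 of 56 members (51.9% of all genes) and for 39 of the 44 brighter ones (57.1% of genes as bright). The median of the members was 0.27 (0.01 over all genes). No member separated the groups without overlap (0.566% of all genes were below and 0.242% above without overlap).

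**Figure D3:**
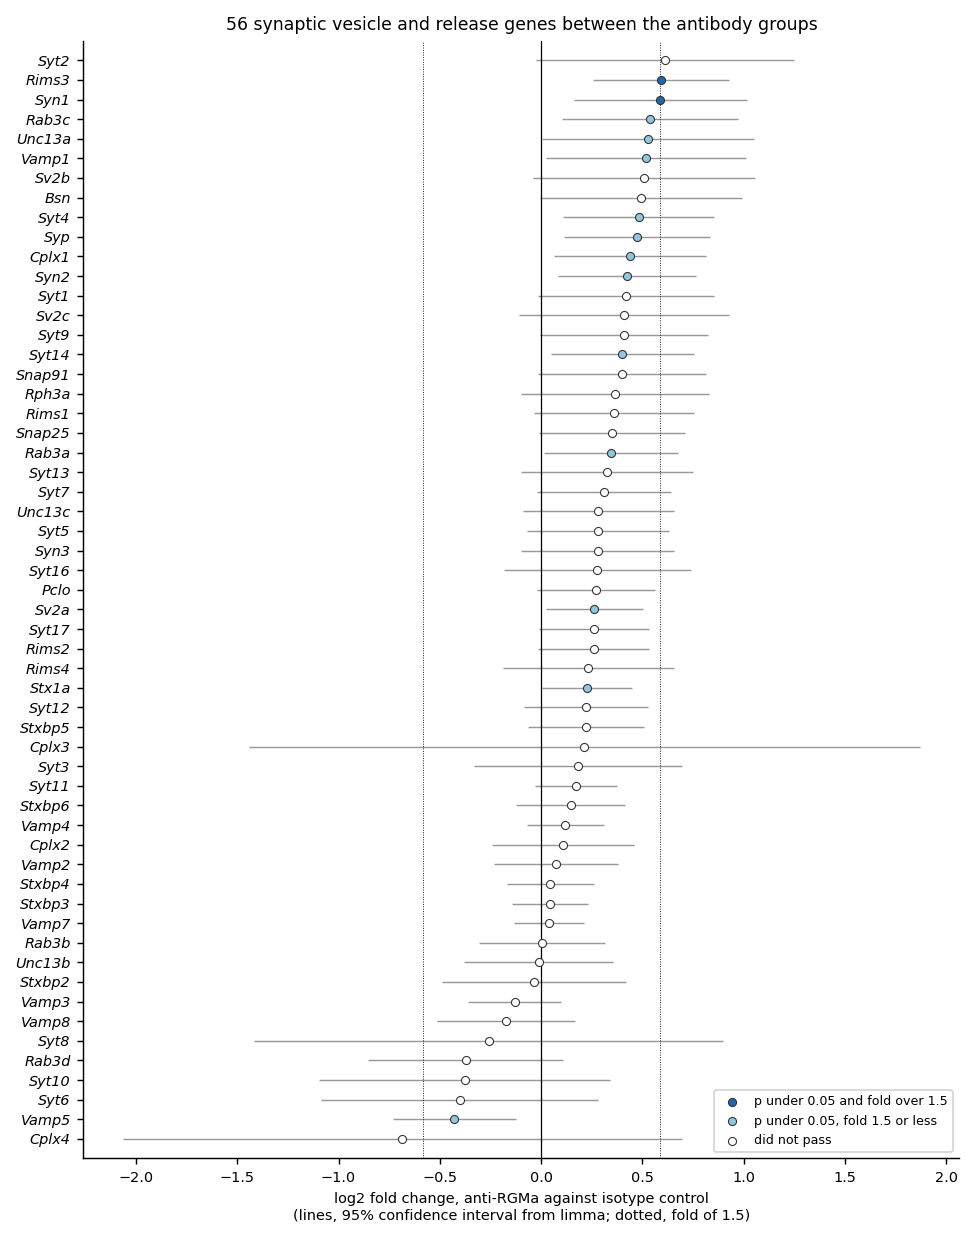
Log2 fold change (horizontal axis) of each of the 56 members in anti-RGMa against isotype control mice, with 95% confidence intervals from limma and dotted lines at a fold of 1.5. Dark points passed an unadjusted p under 0.05 and a fold over 1.5 (Rims3 and Syn1), light points the p alone, and 46 of 56 points lie right of 0.

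The 2 genes past the study's threshold were Rims3, a short form of the RIM family, and the synapsin gene Syn1. Rims3 had 8.49, 8.99, 9.08, 8.64 and 8.65 in isotype control mice and 8.84, 9.48 and 9.69 in anti-RGMa mice, and 4 of 6 anti-RGMa mice stood above all isotype control mice (0.59, SE 0.16, adjusted p = 0.21). Syn1 had 9.17, 10.10 and 10.34 in anti-RGMa mice against 9.01 to 9.70 in isotype control mice, and 5 of 6 stood above all of the latter (0.59, SE 0.20, adjusted p = 0.23). Their folds were 1.51 (Rims3) and 1.503 (Syn1), just past the one set. With the mean of its probe sets the call of Rims3 was lost (0.20, adjusted p = 0.76), and both genes were lost with an offset of 32 on the signal, where Syt2 alone passed.

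The members with a p under 0.05 and a smaller fold were Rab3c (0.54, SE 0.20), Unc13a (0.53, SE 0.25), Vamp1 (0.52, SE 0.23), Syt4 (0.48), Syp (0.47, SE 0.17), Cplx1 (0.44, SE 0.18), Syn2 (0.43), Syt14 (0.40), Rab3a (0.35), Sv2a (0.26) and Stx1a (0.23). For Syp, Cplx1, Vamp1, Sv2a, Unc13a and also Snap25 (0.35, SE 0.17), Sv2b (0.51), Bsn (0.49) and Syt2 (0.61, SE 0.30), which did not reach that p, 5 of 6 anti-RGMa mice lay above every isotype control mouse, and anti-RGMa replicate 6 lay within or below their range. The 1 member with a lower signal at that p was Vamp5, which had 8.66, 8.84 and 9.43 in anti-RGMa mice and 9.04 to 9.53 in isotype control mice (-0.43, SE 0.14, adjusted p = 0.22). Vamp8 (-0.17, SE 0.16), Stxbp2 (-0.04, SE 0.21), Rab3d (-0.37, SE 0.23) and Vamp3 (-0.13, SE 0.11) had overlapping ranges. Intervals that include 0 do not show that these genes were alike. That of Stxbp2, for example, ran from -0.49 to 0.42, and that of Snap25 from -0.01 to 0.71.

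Which array was in the fit changed the counts between the antibody groups, for members and for all genes. Without anti-RGMa replicate 6, 14 members were higher and 1 (Vamp5) was lower at an adjusted p under 0.05, where 5.46% and 2.80% of all genes were, and 10 were higher at the study's threshold (2.95% of all genes). The 14 were Bsn, Cplx1, Rab3a, Rab3c, Rims1, Rims3, Snap25, Syn1, Syn2, Syp, Syt13, Syt2, Unc13c and Vamp1. By the study's rule, 0 members were called when replicate 1 or 5 of the isotype control group was omitted. The same held for replicate 1, 2 or 3 of the anti-RGMa group. In these fits 0.99% to 1.15% of all genes were higher and 1.92% to 2.76% were lower. Omitting isotype control replicate 4 left 1 (Syn1; 1.51% of all genes were higher), and omitting anti-RGMa replicate 5 left 1 (Rims3; 1.21%). The count was 6 with replicate 2 of the isotype control group omitted (1.85% of all genes) and 7 with its replicate 3 omitted (2.32%). With isotype control replicates 3, 4 and 5, those with the highest muscle signal, left out together, 3 passed (Rab3c, Rims3 and Syt14, beside 2.84% of all genes). That fit kept only replicates 1 and 2 of the isotype control group, so its result is less certain than those with 1 array omitted.

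The arrays at the ends of these ranges were the same for many members. The mean log2 signal of 20 genes of the neuronal release core (Syt1, Syt2, Syn1, Syn2, Syp, Sv2a, Sv2c, Snap25, Stx1a, Vamp1, Vamp2, Cplx1, Cplx2, Rab3a, Rph3a, Rims1, Unc13a, Bsn, Pclo and Snap91) was 11.11, 11.18 and 11.46 in naïve mice. It was 10.02, 10.61, 10.62, 10.43 and 10.09 in isotype control replicates 1 to 5 and 10.93, 11.00, 10.88, 10.71, 10.85 and 10.05 in anti-RGMa replicates 1 to 6. The lowest 3 were isotype control replicates 1 and 5 and anti-RGMa replicate 6, the arrays with the highest macrophage means, and they had the lowest neuron marker means too (11.58, 11.60 and 11.79, the other EAE arrays 12.04 to 12.71). For 28 of the 56 members these 3 arrays were the lowest 3 of the 11 EAE arrays, and for 5 (Rab3d, Stxbp2, Stxbp3, Vamp5 and Vamp8) they were the highest 3. Anti-RGMa replicate 6 was the lowest of its group for 38 members and the highest for 6. How many of all genes had these arrays at the ends was not counted, so these counts are not read as particular to the members. The part of macrophage content in the difference between the antibody groups was not tested.

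**Figure D4:**
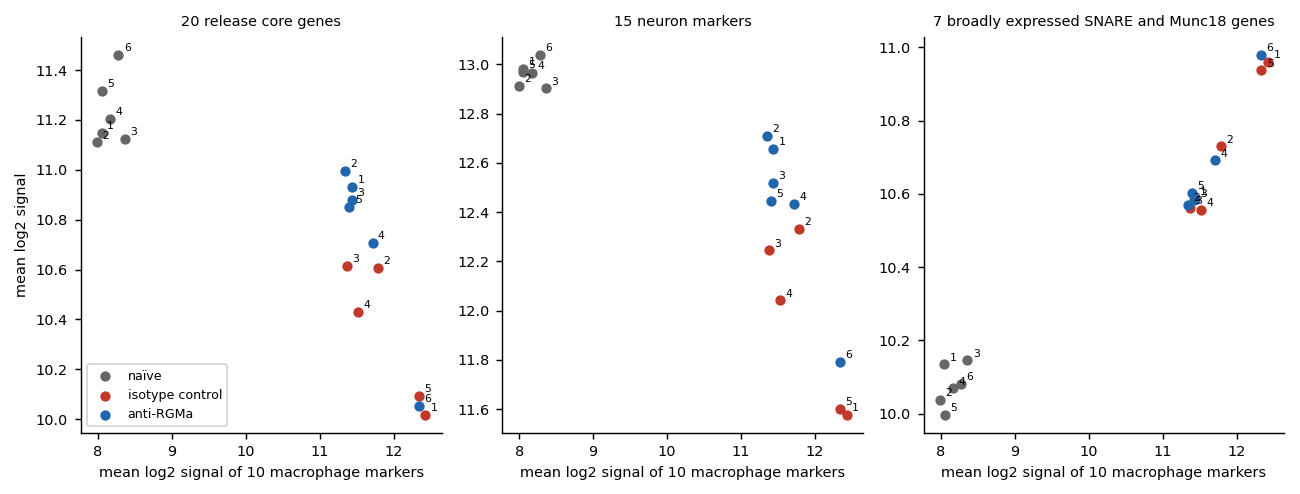
Mean log2 signal of the 20 release core genes, of the 15 neuron markers and of the 7 SNARE and Munc18 genes of other secretion (vertical axes) against the mean of 10 macrophage markers (horizontal axis), 1 point per array with its replicate number. Among EAE arrays, isotype control 1 and 5 and anti-RGMa 6 lie lowest in the left and middle panels and highest in the right panel.

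Neuron markers outside the synapse and further presynaptic genes differed between the antibody groups in the same direction as the members. Fold changes were above 0 on the log2 scale for all 15 neuron markers (median 0.48) and for 26 of 28 further presynaptic genes (median 0.42). In each list 13 genes were higher at an unadjusted p under 0.05, and Ppfia3 (0.73, SE 0.22) and Synpr (0.77, SE 0.25) of the presynaptic genes and Uchl1 (0.67, SE 0.19) and Stmn2 (0.62, SE 0.23) of the neuron markers were past the study's threshold. Markers of glia lay on the same side: 6 of 7 oligodendrocyte markers were above 0 (median 0.23, 5 higher at that p) and 5 of 6 astrocyte markers (median 0.20, 3 higher at that p). Other lists differed. Below 0 lay 8 of 10 macrophage markers (median -0.20, 2 lower at that p) and all 8 skeletal muscle markers (median -1.74, 2 lower at that p). T cell markers divided, with 3 below and 3 above 0, and all 4 sensory ganglion markers lay above 0 (median 1.35). No gene of any of these lists had an adjusted p under 0.05. For each array the mean of the release core minus that of the neuron markers was -1.83 to -1.58 in naïve, -1.73 to -1.51 in isotype control and -1.74 to -1.59 in anti-RGMa mice, ranges that overlap. Syt9 was highest in anti-RGMa replicate 1 (9.23, the others of its group 7.82 to 8.23), the array with the highest sensory ganglion mean.

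Several members were measured by more than 1 probe set, and these did not always move alike. Of 40 such members, 30 had fold changes of 1 sign in isotype control against naïve mice across their probe sets. Over all 132 member probe sets, 82 were lower and 12 higher (26.3% and 21.4% of the 34958 probe sets with 1 gene). Vamp3 was called in both directions: its 3 brightest probe sets had 0.64, 0.48 and 0.54, while 2 dimmer ones had -0.55 (adjusted p = 0.0065) and -0.59 (adjusted p = 0.092). Vamp2, near 0 on the probe set used (-0.07), had -1.07 (SE 0.17, adjusted p = 9.8e-05) on its other probe set, and the mean of both gave -0.57. Vamp1 had -1.33 and -3.17, Cplx1 -0.98, -1.08 and -2.16, and Syt1 between -2.07 and -1.06, so that their size but not their direction depended on the probe set. The 5 probe sets of Rab3c ran from -2.83 to -1.12. The value of -2.83 came from a dim probe set, with mean log2 signals of 3.98 in naïve and 1.15 in isotype control mice. A second probe set of Snap25, with a naïve mean log2 signal of 9.06 against 14.75 for the one used, had 0.01 (SE 0.18), and a dim one of Syp 0.23 (SE 0.36). With the mean of its probe sets Syp was no longer called in isotype control against naïve mice (-0.42, adjusted p = 0.14) and had 0.07 in anti-RGMa against naïve mice. With theirs, Vamp2 was lower (adjusted p = 0.00035) and Vamp3 was near 0 (0.10, adjusted p = 0.45) in the former. All 3 probe sets of Stxbp2 were higher (1.499 to 2.26). The rise of Vamp5 rested on the probe set used, with group means of 7.81 (naïve), 9.35 (isotype control) and 8.92 (anti-RGMa). Its other, dimmer probe set had means of 5.84, 6.01 and 5.69 in the same order.

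**Figure D5:**
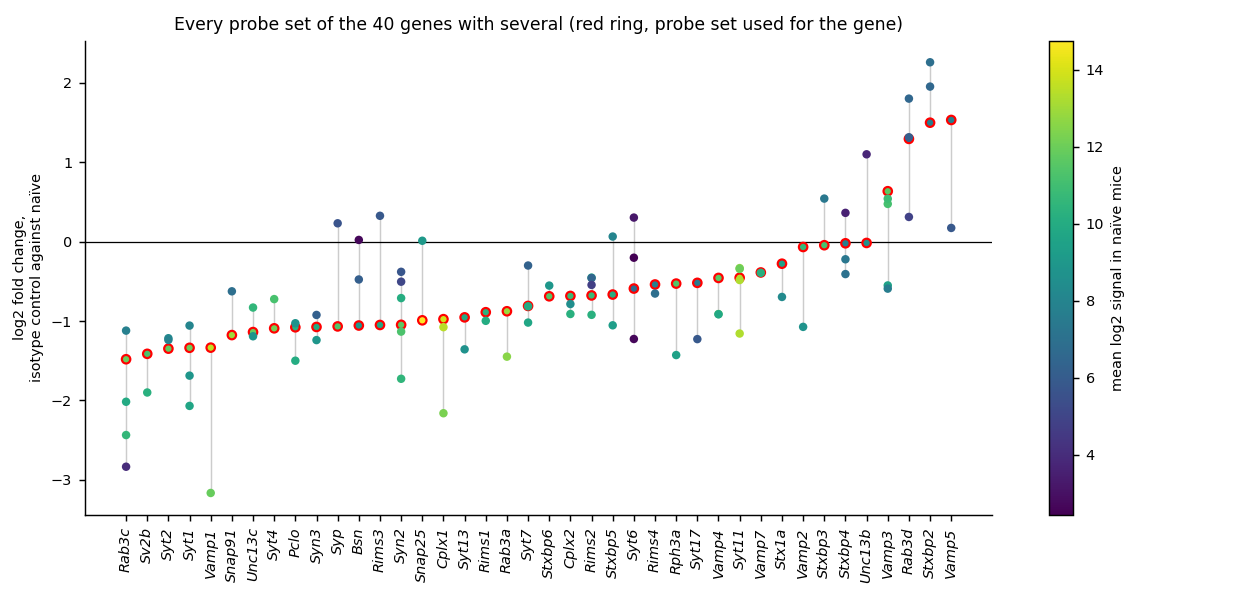
Log2 fold change in isotype control against naïve mice (vertical axis) of every probe set of the 40 members that have several (horizontal axis, ordered by the probe set used, ringed in red), coloured by mean log2 signal in naïve mice. Vamp3 spans 0, Vamp2 runs from -1.07 to -0.07 and Vamp1 from -3.17 to -1.33.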

How the data were processed

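RNA of 17 cords, 1 per mouse, was hybridised to Affymetrix mouse arrays. The deposited intensity values are linear signals that the authors computed with Microarray Suite 5.0 (MAS5.0) and globally scaled, and affy is also named in the notes on processing. No source used here gives the scaling target or the version of affy. After 2% was trimmed from each end, every array had a mean of 500.0, and signals ran from 0.0118 to 44408. Precision is limited by the number of arrays.

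Of 45101 probe sets, the platform annotation gave 34958 a single gene, 932 several and 9211 none. Gene IDs of 34754 were found in the GRCm38.p6 gene table. The probe set of highest mean log2 signal stood for its gene. Log2(signal), without offset or filter, was fitted in limma 3.58.1 (R 4.3.3; lmFit, contrasts, eBayes) in 1 model of the 3 groups without a block, and Benjamini-Hochberg adjustment covered 18194 genes. The fit was tested on simulated data.

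Named members were the release core, SNARE and Munc18 forms of other secretion, the 5 largest rises and falls per comparison among members reaching 8 on the log2 scale in the higher group, and members past a threshold between antibody groups. Others were named after their values were seen. Members and lists were chosen with earlier results of these data known. Alternatives were 2 scalings, an offset of 32, a filter at log2 7, the mean of probe sets, only the groups compared, an intensity trend, array weights, a replicate block, and arrays left out. Testing each probe set was chosen after seeing the data. Figures were drawn with matplotlib 3.10.9.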

Additional observations from a re-analysis of the deposited data

Results flagged for a closer look

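In groups of 5 or 6 arrays, 198 sets of values (members and list means) were checked for 1 array far from the rest by Dixon's test. Of these, 34 had one. Chance gives about 1 in 20 for independent groups, but these sets share arrays and genes, so the flags are not separate events. Most were anti-RGMa replicate 6, whose log2 signal was far below the rest of its group for Bsn (7.53), Cplx1 (12.51), Pclo (8.94), Rab3a (11.82), Snap25 (13.40), Stxbp5 (9.12), Stxbp6 (10.45), Sv2b (9.39) and Syn3 (8.61). It was also far below for Syp (10.16), Syt13 (8.37), Syt2 (9.82), Syt7 (10.22), Unc13a (7.58), Unc13c (10.22) and Vamp1 (11.77). Only Stxbp3 was far above (11.25, the others 11.14 to 11.17) among members in this array. Of the list means it was far below for the release core (10.05), other presynaptic genes (9.19) and neuron markers (11.79), and far above for macrophage markers (12.33) and the SNARE and Munc18 forms of other secretion (10.98). The part of macrophage content in these values was not tested.

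Anti-RGMa replicate 1 stood apart for Syt9 (9.23, above the others) and Unc13b (8.17, below), and replicate 4 for the dim Syt6 (4.12, below). Among naïve mice, replicate 6 was low for Rab3c (11.72), Syt6 (6.20) and other presynaptic genes (10.31). Replicate 1 was high for Snap25 (14.86) and low for Syt3 (7.88) and astrocyte markers (12.36), and replicate 5 was low for Syt8 (3.62) and oligodendrocyte markers (13.43) and high for sensory ganglion markers (6.58).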

How the results depend on the processing

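In 27 alternatives, 17 of which left out 1 array, the members lower and higher against naïve mice at an adjusted p under 0.05 stayed within 1.5 times their counts. With 1 array left out, 35 to 41 members were lower and 5 to 6 higher in isotype control mice (median -0.74 to -0.61), and 28 to 35 lower and 5 to 6 higher in anti-RGMa mice (median -0.53 to -0.35). With array median centring the member medians moved to -0.90 and -0.66, and those of all genes to -0.27 and -0.22, so that the members lay 0.63 and 0.44 below all genes on the log2 scale; quantile normalization moved all genes to -0.18 and -0.16. With the mean of the probe sets of a gene, Syp (0.069) and Vamp2 (-0.43) turned in direction in anti-RGMa against naïve mice. Between the antibody groups, leaving out 1 array gave 0 to 1 members lower and 0 to 14 higher at an adjusted p under 0.05, and 0 to 10 higher by p and fold, with a median of 0.19 to 0.34. By p and fold, the mean of probe sets gave 1 lower (Unc13b, 2.50% of all genes), beside Sv2b and Syn1 higher (1.35% of all genes). With log2(signal + 32) 1 was higher (0.445% of all genes), and with array weights 7 were (1.67%). The causes of these shifts were not tested. With the replicate number as a replicate block, 5 were higher (1.91% of all genes). The 16 pairs of arrays that share a number had correlations of their deviations from -0.06 to 0.07, 0 of them over 0.1. The numbers were therefore not taken to pair mice. Signals near the lower end limit Cplx3, Cplx4 and other dim members.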
